A study of Arabidopsis thaliana with 12 samples.

Results

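MAC3A occupied 499 merged chromatin regions in blue light that no dark library listed, and these blue-only regions are described here by their genes, gene classes, width and place against gene bodies. Overlapping peaks (by at least 1 bp) of 6 MAC3A peak lists on chromosomes 1 to 5 gave 2917 merged regions. A region was blue-only when 2 or 3 of the 3 blue lists and 0 of the 3 dark lists had a peak there, which held for 17.1% of all merged regions. The mirrored rule, 2 or 3 dark lists and 0 blue lists, gave 213 dark-only regions, or 7.3% of all merged regions. The members were chosen by the presence of peaks in these same lists, so their presence, fold enrichment and q values are a description without a test.

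MAC3A belongs to the MOS4-associated complex of plants, which corresponds to the Prp19 complex of yeast and animals. That complex joins the spliceosome and acts in pre-mRNA splicing. MAC3A itself carries a U-box, the part of the protein that gives ubiquitin ligase activity, and WD40 repeats. Cryptochromes are the blue-light receptors named with MAC3A in the series title, and under their control seedlings in blue light leave the growth form of darkness. In chromatin immunoprecipitation sequencing (ChIP-seq), DNA bound to a tagged protein is pulled down with an antibody and sequenced, and a peak marks a stretch where such DNA is enriched over the local background.

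The blue and the dark group each comprised 3 MAC3A libraries of Arabidopsis thaliana seedlings, with 3 control samples per group that were not analysed here. All 6 libraries came from a line that expresses a MAC3A fusion with green fluorescent protein (GFP). The sources used here do not give the promoter of the transgene or the number of lines, and the genotype label reads Columbia-4. The growth notes give 6 days and name blue light for every sample, while the titles set the groups used here. The antibody is named as anti-FLAG although the notes describe a GFP fusion, and the controls are titled input although the notes name a line with GFP alone. The labels do not say that libraries of a group came from separate cultures, so p values measure only the spread between these libraries. With 3 libraries against 3, 0.10 is the smallest two-sided p an exact permutation test can reach, and no comparison below could pass 0.05.

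The blue lists held 1505, 1820 and 1578 peaks and the dark lists 1285, 1225 and 1169. Read totals were not given with the lists, so depth per library is unknown. The lists differed in the fold at which a peak entered them. Among peaks with a −log10 q under 2.5, the median fold averaged 2.35 over the blue lists and 2.56 over the dark lists. Of the 499 blue-only regions, 146 (29.3%) had a median fold below the dark value. The part that this difference between the lists plays in the absence of dark peaks was not tested.

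Of the blue-only regions, 235 had a peak in all 3 blue lists, or 8.06% of all merged regions, and 264 had one in exactly 2. Regions of all 3 dark and 0 blue lists numbered 104, or 3.57%. Blue replicates 2 and 3 alone shared 126 of the members, replicates 1 and 2 shared 90, and replicates 1 and 3 shared 48. The excess of blue-only over dark-only regions was smaller among stronger peaks. Among peaks whose −log10 q reached 5 there were 171 blue-only and 130 dark-only regions, and in lists cut to equal length 269 and 256. Where the fold had to reach 3 the order turned, with 114 blue-only and 217 dark-only regions. Folds ran higher in the dark lists as a whole, so this limit is milder for them. The median fold over all peaks was 3.42, 3.48 and 3.45 in the dark lists and 2.92, 2.87 and 2.89 in the blue lists. Leaving out 1 blue list makes the rule ask for 2 of 2 blue lists, so the count falls by construction. It was 360 without blue replicate 1, 289 without replicate 2 and 328 without replicate 3.

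**Figure D1:**
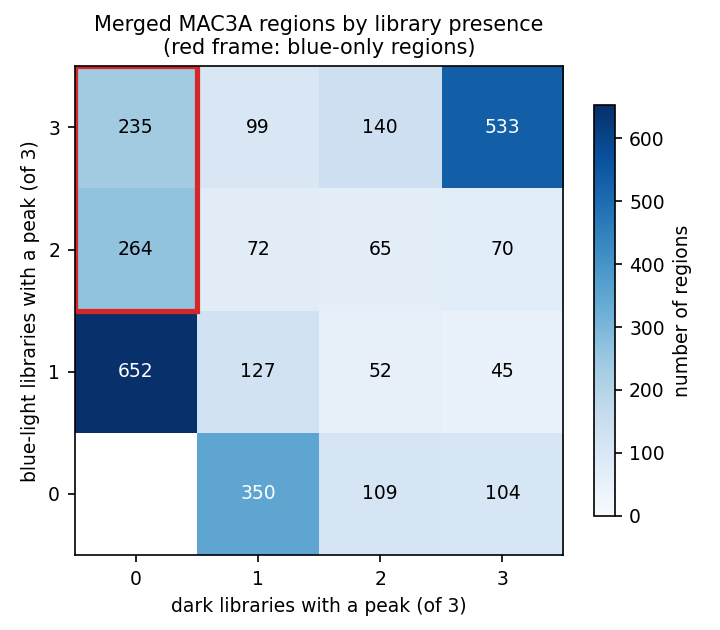
Number of merged MAC3A regions by the number of blue-light lists (vertical axis) and dark lists (horizontal axis) with a peak. The red frame marks the 499 blue-only regions, 235 with 3 and 264 with 2 blue lists, beside 533 regions found in all 6 lists.

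Presence was also read in libraries that took no part in the choice. Regions were chosen with 2 blue and 2 dark lists, in all 9 ways to leave out 1 list of each condition, which gave 321 to 406 regions (median 371). The left-out blue list had a peak at 66.6% to 83.5% of them (median 73.3%). The left-out dark list had a peak at 8.86% to 13.2% (median 11.3%). For regions chosen as dark-only in the same way, the left-out dark list had a peak at 69.5% to 78.7% (median 73.9%) and the left-out blue list at 8.70% to 20.2% (median 10.4%). The choice was thus repeated in most, not all, regions of a further library, at similar medians for both rules.

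Blue-only regions were moderate peaks. Their median fold, taken at the strongest summit of each list, ranged from 1.61 to 4.03 with a median of 2.71, and 96 regions reached a median fold of 3. By library the median fold of their peaks was 2.72, 2.72 and 2.67, against 3.61, 3.80 and 3.69 for the peaks of all-6 regions in the same blue lists. The dark-only peaks had median folds of 2.99, 3.16 and 3.04 in the dark lists, where peaks of all-6 regions had 4.46, 4.59 and 4.37. When peaks were ranked within their list by −log10 q, the best member had a mean rank at 15.0% of list length and the median member at 64.2%. Every member therefore ranked below the strongest peaks of its lists. All folds are values of single peaks from the authors' caller.

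**Figure D2:**
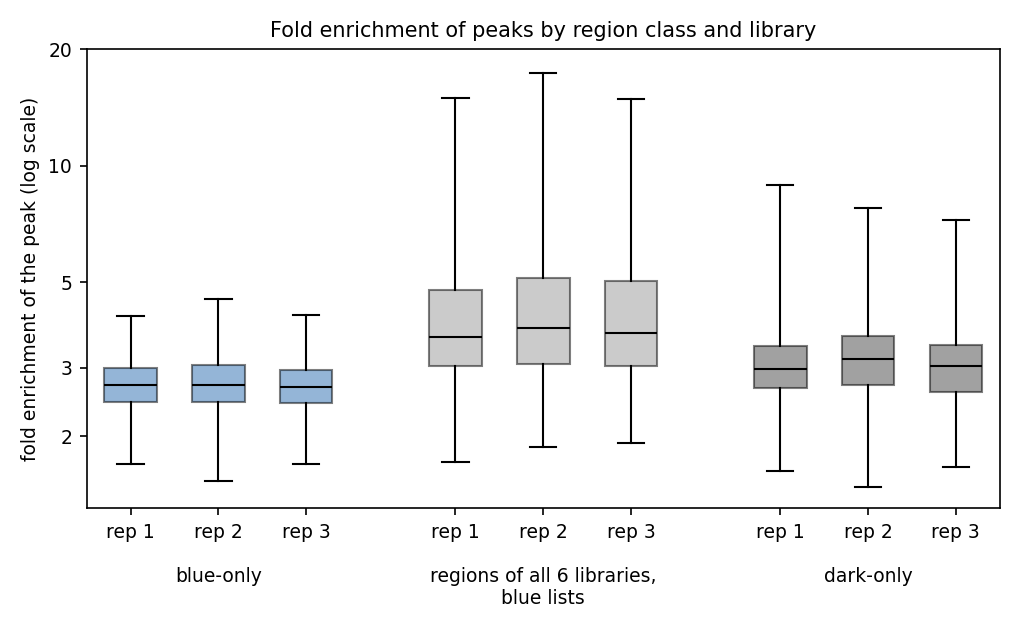
Fold enrichment of peaks (log axis) in each library for blue-only regions in blue lists, regions of all 6 libraries in the same blue lists, and dark-only regions in dark lists. Boxes span the quartiles with the median as a line, and whiskers reach the lowest and highest peak. Blue-only medians lie at 2.67 to 2.72, below the all-6 medians of 3.61 to 3.80.

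Regions on both sides of the rule's limit had similar values. Members with 2 blue peaks had a median blue fold of 2.64, and members with 3 had 2.79. Outside the rule, 72 regions with 2 blue and 1 dark peak had a median blue fold of 2.75, and 99 with 3 blue and 1 dark peak had 2.93. The 652 regions of a single blue list had 2.60. The weakest member with 2 blue peaks, by its stronger peak, lay at HFR1 on chromosome 1 from 467507 to 467809 (TAIR10, as all coordinates here), with folds of 2.28 and 2.27 in blue replicates 1 and 3. Next came AT2G31800 with AT2G31810 (chromosome 2, 13523539 to 13524133) and AT4G15610 (chromosome 4, 8910865 to 8911241). The nearest regions outside, kept out by 1 dark peak, lay at AT1G61260, AT4G20860 with FAH2, and SFP1. Their dark peaks had −log10 q values of 2.00, 2.02 and 2.04, at the lower end of the lists. The strongest regions of 1 blue list lay at CKL2 with AT1G72720, at AT2G02590 with the tRNA gene AT2G02600, and at AT4G36648 with PBRP, with −log10 q values of 8.82, 8.36 and 7.88.

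Few blue-only regions lay directly beside a dark peak, and few dark-only regions lay directly beside a blue peak. The median distance to the nearest dark peak was 14762 bp, and 301 regions (60.3%) had none within 10000 bp. A dark peak lay within 500 bp of 14 regions (2.81%) and within 2000 bp of 63 (12.6%). The mirrored shares were similar. Of 213 dark-only regions, 4 (1.88%) had a blue peak within 500 bp and 31 (14.6%) within 2000 bp. In 45 regions a summit lay in a gene body that held a dark summit elsewhere. Another blue-only region lay within 10000 bp of 98 members. Chromosome 5 held 135 of the members (27.1%), against 41 of the dark-only regions (19.2%) and 22.2% of the genes in the RefSeq table. Chromosome 4 held 58 members (11.6%), against 39 dark-only regions (18.3%) and 15.4% of the genes.

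The regions were narrow. Merged blue-only regions had a median width of 413 bp (interquartile range 328 to 542.5), against 421 bp for dark-only regions and 736 bp for regions of all 6 libraries, whose merging over more lists also widens them. Only 16 (3.21%) exceeded 1000 bp, against 118 of 533 all-6 regions (22.1%). In 362 members every list had a single summit. The peaks themselves had a median width of 301, 328 and 306 bp in the blue lists, against 348, 329 and 335.5 bp for dark-only peaks in the dark lists. The means of 312 ± 14.4 and 337.5 ± 9.66 bp (SD, n = 3 each) differed by -25.8 bp. The libraries of a condition were read here on largely the same regions, and the conditions themselves defined both sets. The SD of blue-only and dark-only values therefore understates the error of such a comparison, and no p is given for one. Tests are given for whole lists and for regions of a single list, which are formed without the condition. Over whole lists, members included, median peak widths were 351 ± 5.53 bp in blue and 364 ± 5.03 bp in the dark (SD, n = 3 each, two-sided exact permutation p = 0.10). In regions of a single list they were 253 ± 8 bp and 247 ± 3.33 bp (SD, n = 3 each, two-sided exact permutation p = 0.40). The difference between blue-only and dark-only peaks was -4.33 bp in lists cut to equal length. It turned at a fold of at least 3, where blue-only peaks were wider by 25.2 bp.

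Blue-only regions lay less often in gene bodies than dark-only regions. Of their summits, 72.7%, 71.7% and 69.8% fell inside a gene body in the 3 blue lists, against 84.7%, 84.5% and 84.8% of dark-only summits in the dark lists. The means were 71.4 ± 1.49% and 84.7 ± 0.137% (SD, n = 3 each), a difference of -13.3 percentage points. The balance lay within 1 kb of a gene, at 26.5 ± 1.31% of blue-only and 13.2 ± 0.386% of dark-only summits (SD, n = 3 each). Summits farther away made up 2.12% in both. Regions of a single list gave 68.3 ± 5.64% in blue and 76.7 ± 5.74% in dark lists, where the groups overlapped (SD, n = 3 each; two-sided exact permutation p = 0.20). Over whole lists, members included, 76.9 ± 0.526% of summits in blue and 82.1 ± 1.31% in the dark fell inside gene bodies (SD, n = 3 each, two-sided exact permutation p = 0.10). In the same blue lists, 86.3% of the summits of all-6 regions fell inside gene bodies. The difference between blue-only and dark-only summits was -8.74 points in lists cut to equal length and -5.57 points where the fold had to reach 3.

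Within protein-coding genes, blue-only summits sat close to a gene end. Their median distance to the nearer end was 274 ± 15.9 bp, against 457 ± 14.8 bp for dark-only summits (SD, n = 3 each). A distance of at most 200 bp was found for 40.6 ± 1.85% of blue-only summits and 13.8 ± 1.55% of dark-only summits (SD, n = 3 each). For all-6 regions in the blue lists the share was 22.2%. Host genes had median lengths of 2222 ± 18.4 bp for blue-only and 1986 ± 87.5 bp for dark-only summits (SD, n = 3 each). For all-6 regions in the blue lists the length was 2258 ± 14.3 bp (SD, n = 3). The part of gene length in these shares was not tested. The gene table gives no strand, so starts and ends of transcription could not be told apart. Where the fold had to reach 3 the difference in this share was 9.86 points, against 26.9 points over all peaks. Regions of a single list, which the rule did not choose, gave shares of 41.8 ± 3.62% in blue and 24.9 ± 3.99% in dark lists (SD, n = 3 each; two-sided exact permutation p = 0.10). Over whole lists, members included, the shares were 33.3 ± 1.18% in blue and 24.8 ± 0.691% in the dark (SD, n = 3 each; two-sided exact permutation p = 0.10).

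**Figure D3:**
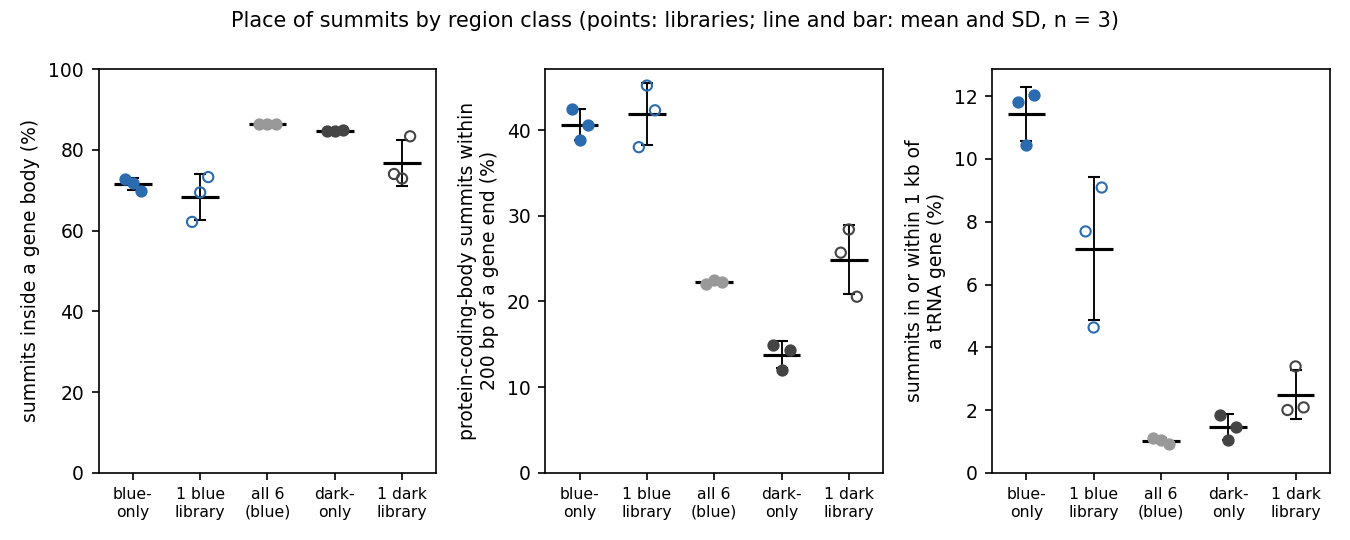
Share of summits inside a gene body, share of summits in protein-coding bodies that lie within 200 bp of a gene end, and share in or within 1 kb of a tRNA gene, in percent. Points are libraries (filled for blue-only, dark-only and all-6 regions, open for regions of 1 library), with mean and SD (n = 3). Blue-only summits lie below dark-only summits in the left panel (71.4% and 84.7%) and above them in the other panels (40.6% and 13.8%, 11.4% and 1.45%).

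RNA genes, and among them transfer RNA (tRNA) genes, were more frequent at blue-only than at dark-only regions. An RNA gene of any class but miscellaneous RNA lay in or within 1 kb of 21.1 ± 1.18% of blue-only and 10.9 ± 1.44% of dark-only summits (SD, n = 3 each). Of this difference of 10.2 points, tRNA genes alone gave 9.98, so the other RNA classes together added almost nothing. The difference was 16.2 among peaks whose −log10 q reached 5 and 19.9 where the fold had to reach 3. A tRNA gene is a short gene, transcribed by RNA polymerase III, whose product carries an amino acid to the ribosome. A summit lay in or within 1 kb of a tRNA gene in 62 of the 499 blue-only regions (12.4%), against 3 of 213 dark-only regions (1.41%) and 6 of 533 all-6 regions (1.13%). By library the share of blue-only summits was 11.8%, 10.4% and 12%, against 1.85%, 1.03% and 1.47% of dark-only summits. The means of 11.4 ± 0.866% and 1.45 ± 0.411% (SD, n = 3 each) gave a ratio of 7.88. Over whole lists, members included, 5.58 ± 0.488% of summits in blue and 2.08 ± 0.216% in the dark lay there, a lower ratio of 2.68 (SD, n = 3 each; two-sided exact permutation p = 0.10). In regions of a single list the shares were 7.14 ± 2.28% in blue and 2.49 ± 0.779% in dark lists (SD, n = 3 each; two-sided exact permutation p = 0.10).

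The summits sat in or close beside the tRNA genes. Of the 62 regions, 60 had a summit within 200 bp of a tRNA gene and 42 had one inside it, and the median distance over 170 summits was 7.5 bp. The 65 tRNA genes in or within 1 kb of these summits made up 10.4% of the 625 in the table, against a background of 2.26% over all genes. Dark-only summits reached 3 tRNA genes (0.48%) and all-6 summits 6 (0.96%), where the backgrounds were 0.897% and 2.22%. The tRNA genes at blue-only summits served 20 amino acids, and the share with a summit within 200 bp was highest for phenylalanine (4 of 16) and histidine (2 of 10) and lowest for proline (1 of 66). Serine had the highest count, 9 of 64. These counts are small, and no test was made between amino acids. The regions were narrower than the other members, at a median of 316 bp against 428 bp, and their median fold was 2.89 against 2.67.

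Summits at tRNA genes were also more numerous in blue over whole lists, which include the members. Blue-only regions held 152 of the blue-list summits within 200 bp of a tRNA gene, so the comparison is not separate from their choice. Summits within 200 bp of a tRNA gene numbered 80, 97 and 99 in the blue lists and 16, 21 and 15 in the dark lists, at means of 92.0 ± 10.4 and 17.3 ± 3.21 (SD, n = 3 each). The ratio of 5.31 had an exact permutation p of 0.10 (two-sided), and every blue list exceeded every dark list. It was 6.14 among peaks whose −log10 q reached 5, 3.78 among those with a fold of 3 or more and 4.54 in lists cut to equal length. At a fold of 3 or more, where dark-only regions outnumbered blue-only ones, tRNA summits thus remained more numerous in blue lists. Among single tRNA genes, 31 had such a summit in 3 blue and 0 dark lists, 28 in 2 blue and 0 dark, and 3 in all 6. The largest class was 48 genes in 1 blue and 0 dark lists. Others had summits in some lists of both conditions. Dark lists alone held 4, each in 1 list. Many tRNA genes have near-identical copies, and how the authors placed reads that match several copies is not given in the sources used here, and so the count at a single gene is uncertain. Without summits within 1 kb of tRNA genes, 73.5 ± 2.01% of blue-only and 84.5 ± 0.104% of dark-only summits lay in gene bodies, and 40.0% and 13.6% of those in coding genes lay within 200 bp of an end (SD, n = 3 each).

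**Figure D4:**
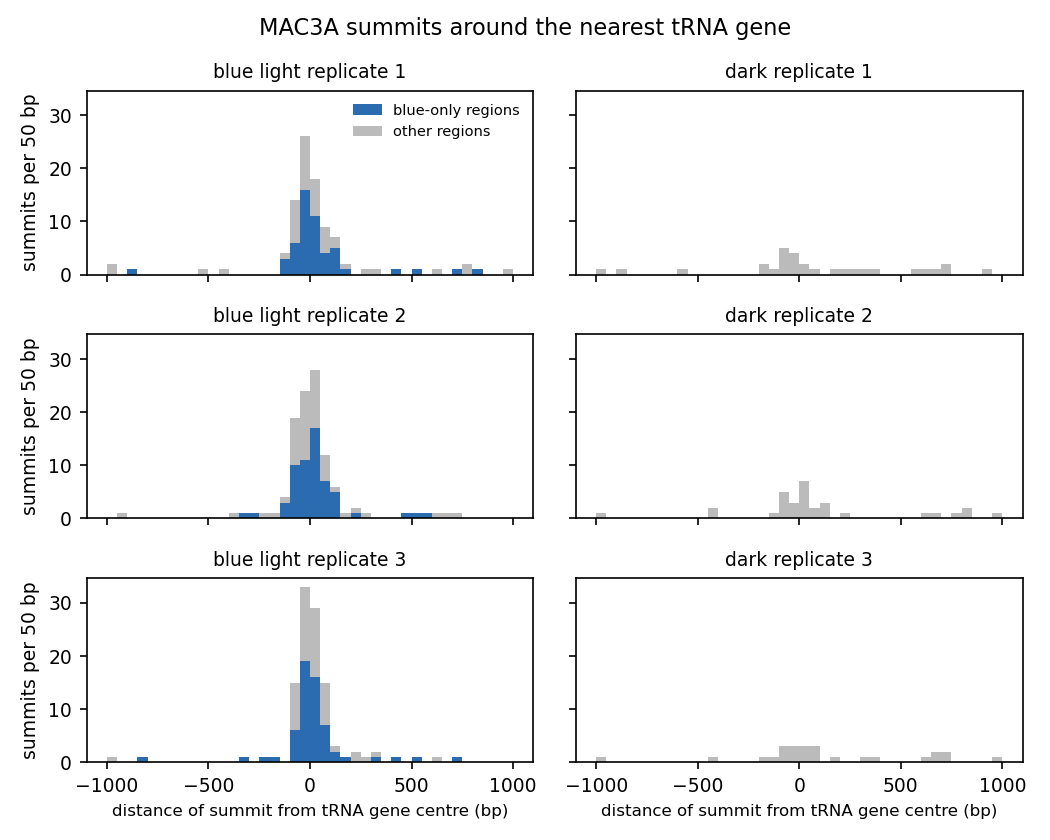
Number of summits per 50 bp against the distance from the centre of the nearest tRNA gene (bp), in the 3 blue-light libraries (left) and the 3 dark libraries (right), with blue-only regions in blue and other regions in grey. Blue lists hold 80 to 99 summits within 200 bp of a tRNA gene and dark lists 15 to 21.

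Several tRNA regions ranked among the strongest members. The arginine tRNA gene AT5G65015 (chromosome 5, 25972471 to 25972872) had folds of 3.77, 4.5 and 3.98 in the 3 blue lists, beside the asparagine synthetase gene ASN2. The isoleucine tRNA gene AT1G07100 (chromosome 1, 2177521 to 2178192) had folds of 4.01, 3.5 and 4.07, beside F2KP, which makes and breaks down the glycolysis regulator fructose 2,6-bisphosphate. The glutamine tRNA gene AT5G23665 (chromosome 5, 7981220 to 7981574) had folds of 3.14, 4.03 and 4.11, beside the sphingolipid synthesis gene LCB2. All 3 regions were present in every blue list at similar folds. The cysteine tRNA gene AT5G41265 lay in a region beside BSK8 with folds of 3.52, 3.22 and 3.94. Of the 8 best-ranked regions with 2 blue peaks, 5 lay at tRNA genes. These were the glycine gene AT5G53487 (folds of 3.84 and 3.81), the methionine gene AT1G04720, AT3G27825, the phenylalanine gene AT3G15585 beside the autophagy gene APG8H, and AT5G60963.

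Other RNA classes were rarer. Long noncoding RNA genes lay in or within 1 kb of 49 blue-only regions (9.82%), against 17 dark-only (7.98%) and 39 all-6 regions (7.32%). Counted over genes, 51 of 3480 long noncoding RNA genes (1.47%) had a blue-only summit there, below the 2.26% over all genes. The strongest by median fold was AT5G09785 near the abscisic acid signalling kinase gene SNRK2.3 (fold 3.52), then AT3G03635 near AT3G18170 (3.24), AT1G09307 near the jasmonate repressor gene JAZ6 (3.16) and AT1G07573 near AT1G49610 (3.15). MicroRNA genes lay at 6 blue-only regions (1.2%), against 2 dark-only and 1 all-6, and the 6 microRNA genes made up 1.84% of 326, also below the 2.26% over all genes. MIR168a, whose microRNA targets the silencing protein gene AGO1, had folds of 2.83 and 3.01 in blue replicates 2 and 3 (chromosome 4, 10578337 to 10578804). MIR827, known from phosphate starvation, had folds of 2.64 and 2.76 in the same lists. MIR5657 lay within the protease gene DEG14, and MIR1888b near AT3G60960. Small nucleolar RNA genes lay at 3 blue-only (0.601%), 1 dark-only (0.469%) and 2 all-6 regions (0.375%). The 7 such genes at blue-only summits made up 2.44% of 287, near the 2.26% over all genes. Median folds were 2.95 near AT3G02435 and AT3G02445, 2.48 near AT3G58193 and AT3G58196, and 2.43 near AT4G13245. The antisense gene AT2G09785 lay near a region at the tRNA gene AT2G47100 (median fold 2.88), and the noncoding genes AT1G23052 and AT4G36648 lay at regions with median folds of 2.61 and 2.06. They made up 1.27% of 79 antisense and 0.905% of 221 such noncoding genes, below the 2.26% over all genes. Miscellaneous RNA genes, not counted in the RNA share above, lay at 6 blue-only (1.2%), 1 dark-only (0.469%) and 10 all-6 regions (1.88%). No blue-only or dark-only region lay at a small nuclear RNA gene, the class of the spliceosomal RNAs, while 14 all-6 regions (2.63%) did.

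Protein-coding genes at blue-only regions numbered 707, or 2.58% of the 27444 in the table, with a summit in the body or within 1 kb. In 358 of them the summit lay in the body. Dark-only regions reached 303 protein-coding genes (1.1%) and all-6 regions 752 (2.74%). A protein-coding body held a summit in 338 blue-only regions (67.7%), against 175 dark-only (82.2%) and 453 all-6 regions (85.0%).

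The best-ranked member lay over AT2G20670 on chromosome 2 from 8911418 to 8913615. Its folds were 2.44, 2.40 and 2.52 in the 3 blue lists, at −log10 q values of 10.4, 12.7 and 11.7, and its peaks spanned up to 2177 bp. The second lay beside AT5G20700 and PRK6, a receptor kinase gene of pollen tubes (chromosome 5, 7005240 to 7005882), with folds of 3.97, 3.09 and 3.78. The widest member, 4892 bp, covered much of the beta-galactosidase gene BGAL4 (chromosome 5, 23004110 to 23009001). It held 7, 12 and 10 summits and its folds were 3.90, 3.40 and 3.42. AT2G32150 had the next widest, 2390 bp (chromosome 2, 13658925 to 13661314), with folds of 3.66, 3.75 and 3.43. The ethylene response factor gene ERF-1 had a region of 1586 bp with folds of 2.71, 2.85 and 2.64.

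Regulatory genes followed among the 20 best-ranked regions. BT5 and BT2 encode BTB-TAZ proteins, which serve as substrate adaptors and scaffolds. BT5, with AT4G37608, had folds of 2.95, 3.28 and 3.09 (chromosome 4, 17670032 to 17671441), and BT2 had folds of 3.10, 2.79 and 2.49 (chromosome 3, 17907807 to 17909185). A dark peak lay 431 bp from the BT5 region. AT5G22920, named RZPF34 in the table as a RING zinc-finger protein gene, had folds of 3.48, 3.37 and 3.46. The 14-3-3 protein gene GRF6 had folds of 3.25, 3.93 and 2.65, and AT1G22190, the AP2-type factor RAP2.4, had 3.09, 3.23 and 2.76. AT4G40040, a histone H3.3 gene, had folds of 3.20, 3.39 and 3.53. Among these 6 regions the folds of GRF6 lay farthest apart, with the lowest in replicate 3.

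The remaining best-ranked regions lay at the dormancy gene DRM2, at DIN4 with ECT2, beside the transcribed pseudogene AT1G35513, beside the membrane trafficking gene PATL1, at TRM28 with AT5G03668, and beside AT5G66650 and DAR3. Their median folds ran from 2.80 to 3.78. The 3 regions of 2 blue lists without a tRNA gene lay at AT5G05890 (folds of 3.29 and 3.14), at BT1 (3.10 and 2.87) and at EIL1 (3.11 and 3.39), a transcription factor gene of ethylene signalling. The narrowest members, 211 and 215 bp, lay near the tRNA gene AT3G48515 with CYP94B3 and at the late embryogenesis gene LEA4-5.

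Genes of a list built around dark-inducible and sugar-starvation genes were frequent at blue-only regions. Dark-inducible genes serve amino acid breakdown, nitrogen storage and sugar signalling when photosynthesis stops. The list also holds relatives such as ASN2, for which induction by darkness is not claimed here. Of 29 genes in the list, 12 (41.4%) had a blue-only summit in the body or within 1 kb, against the 2.58% over all protein-coding genes, and 9 of them had it in the body. Dark-only regions reached 1 of the 29, ERD5 (3.45%, against 1.1% over all protein-coding genes). All-6 regions reached 4 (13.8%, against 2.74%). Over whole lists, members included, 13, 17 and 15 of the 29 genes had a summit in the blue lists, against 5, 5 and 6 in the dark lists. The groups did not overlap, at means of 15 ± 2 and 5.33 ± 0.577 (SD, n = 3 each; two-sided exact permutation p = 0.10). The gene lists here and below were chosen with earlier results of these data known. Member genes, chosen by blue presence and dark absence, also count here, so this p is no separate support. The count of 12 became 7 in lists cut to equal length, 6 where the −log10 q had to reach 5 and 3 where the fold had to reach 3.

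Amino acid genes stood in the list with 5 members. DIN3 and DIN4 encode subunits of the branched-chain ketoacid dehydrogenase. DIN4 had folds of 3.97, 3.52 and 3.56 in the 3 blue lists and no dark summit, but its region (chromosome 3, 4384348 to 4384947) is shared with the m6A reader gene ECT2 and reached the DIN4 body in 1 list only. DIN3 had folds of 2.47, 2.68 and 2.31, and BCAT-2, a branched-chain transaminase gene, had 2 regions with folds of up to 2.87 in replicates 1 and 2. For the asparagine synthetase gene ASN1 the blue-only region had folds of 2.46, 2.99 and 2.71, and other summits lay at the gene in all 3 dark lists, so the gene itself was not blue-only. The ASN2 region is the one at the tRNA gene AT5G65015 described above, and no list had its summit in the ASN2 body.

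Sugar and dormancy genes made up the other members. DRM2 (AT2G33830) had folds of 2.95, 3.99 and 3.23 over a region of 1294 bp (chromosome 2, 14308573 to 14309866), and a second region of 282 bp. Its relative DRM1 (DYL1) had folds of 3.35, 2.36 and 2.55. DIN10, a raffinose synthase gene, had a region of 1868 bp on chromosome 5 from 6835333 to 6837200 with folds of 2.40, 2.38 and 1.71. The trehalose phosphate synthase-like genes TPS8 (2.87, 2.79 and 2.88) and TPS9 (up to 2.58 and 2.67 in replicates 2 and 3), SEN1 (2.27 and 2.48 in the same lists) and KMD4 (1.91 and 1.86) completed them. None of these 7 genes had a dark summit. Of the 17 list genes without a blue-only summit, 10 had no summit in any list and 4 had summits in both conditions. MCCA and BZIP1 had a summit in blue replicate 2 and in no dark list. DIN9 had folds of 9.88, 10.4 and 10.4 in the blue lists and 12.2, 14.4 and 15.7 in the dark lists, and ERD5 had summits only in the dark lists, with folds of 7.02, 3.59 and 6.73.

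**Figure D5:**
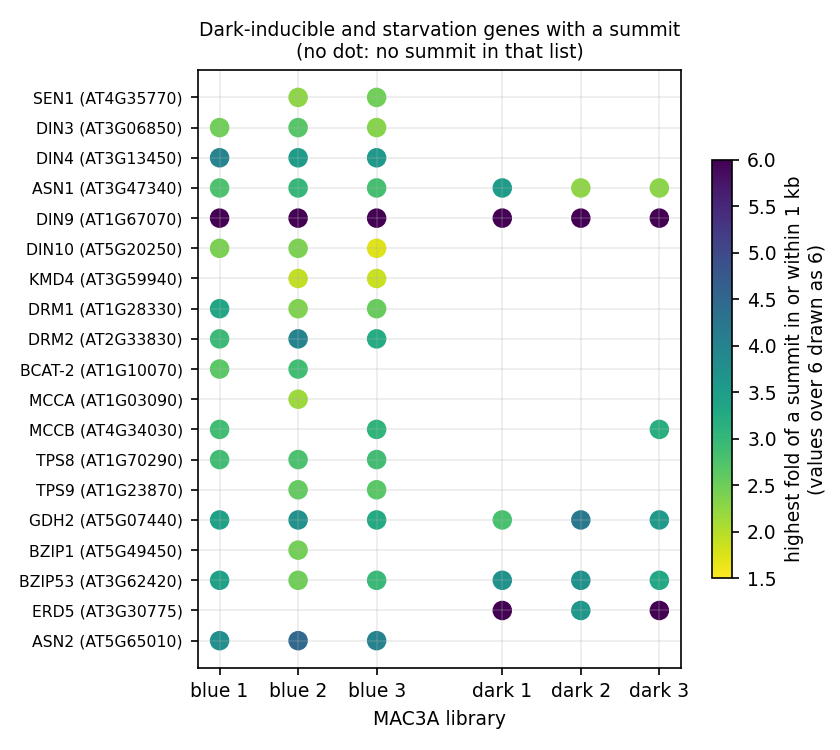
Genes of the dark-inducible and starvation list with at least 1 summit in or within 1 kb (rows) in the 3 blue-light and 3 dark libraries (columns). Colour gives the highest fold of such a summit, with folds over 6 drawn as 6, and an empty place means no summit in that list. Blue lists hold 13 to 17 of the 29 genes and dark lists 5 to 6.

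Light-signalling genes had fewer members. Of 46 genes in the list, 4 (8.70%) had a blue-only summit, 3 (6.52%) had a dark-only summit and 1 (2.17%) an all-6 summit. The shares over all protein-coding genes were 2.58%, 1.1% and 2.74%. HFR1, a factor that restrains shade growth, had 2 blue-only regions, the stronger on chromosome 1 from 465119 to 465712 with folds of 2.59, 2.95 and 2.34. BBX21, a B-box activator of HY5, had folds of 3.93, 3.01 and 2.74 beside the gene. PIF4, a growth-promoting factor that phytochrome controls, had folds of 3.15 and 2.55 in its body, and GBF1, a G-box factor, had 2.28 and 2.95 beside the gene, both in replicates 2 and 3. A dark summit lay elsewhere at PIF4 in 1 list. Over whole lists, members included, 9.33 ± 1.53 genes had a summit in blue and 6 in each dark list (SD, n = 3 each; two-sided exact permutation p = 0.10).

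The clock, growth and photosynthesis lists had members too. Their shares are to be read against the 2.58% of all protein-coding genes with a blue-only, 1.1% with a dark-only and 2.74% with an all-6 summit. Of 21 clock genes, 2 (9.52%) had a blue-only and 1 (4.76%) a dark-only summit. CCA1, a morning factor of the clock, had folds of 3.00, 2.99 and 2.38 beside the gene, and TIC, a clock regulator, had 2.65, 2.47 and 2.62 in its body. Of 55 growth and hormone genes, 5 (9.09%) had one, against 2 (3.64%) with a dark-only and 7 (12.7%) with an all-6 summit. The auxin repressor genes IAA4 (folds of 2.59 and 2.60 in replicates 1 and 2) and IAA7 (2.92 and 2.72 in replicates 2 and 3) were among them. The gibberellin repressor gene GAI had 2.68 and 2.79 in replicates 1 and 2. The shade factor ATHB2 had 2.38, 3.17 and 2.34, and the proton pump gene AHA2 had 2.81, 2.30 and 3.28. IAA4 and AHA2 had other summits in all 3 dark lists. Of 41 nuclear photosynthesis genes, 3 (7.32%) had a blue-only summit, and 1 (2.44%) had a dark-only summit. The photosystem subunit genes PSBR and PSAN had folds of 2.42, 2.31 and 3.17 and of 3.00, 2.28 and 2.38, and the antenna gene LHCB4.1 had 2.27 and 2.36 in replicates 1 and 2. PSAN had other summits in 2 dark lists.

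Stress and splicing lists gave few or no members. Of 36 heat and abiotic stress genes, only DREB2A, a drought and heat factor, had a blue-only summit, with folds of 3.12, 3.52 and 2.79 in its body. It made up 2.78% of the list, against 2.58% over all protein-coding genes. Dark-only summits reached 5 genes of that list (13.9%, against 1.1%) and all-6 summits 8 (22.2%, against 2.74%). Per peak list, with blue-only and dark-only regions included, 11 ± 1 of its genes had a summit in blue and 14 ± 0 in the dark (SD, n = 3 each; two-sided exact permutation p = 0.10). None of 39 genes of the MOS4-associated complex and splicing and none of 24 flavonoid genes had a blue-only or a dark-only summit, and 1 of each had an all-6 summit. At the 2.58% over all protein-coding genes, lists of this size hold few members.

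A few members lay away from genes. The strongest summit was more than 1 kb from any gene in 13 regions (2.61%), and 11 had no gene within 1 kb of any summit. The strongest of these by median fold lay on chromosome 4 from 17397610 to 17398041, with folds of 3.08, 3.48 and 3.43 and a dark peak 628 bp away. The next lay on chromosome 1 from 19825294 to 19825733, with folds of 3.30, 3.52 and 2.80. The others named by the same ranking, 2 on chromosome 5 (1518006 to 1518301, 26037576 to 26037866) and 1 on chromosome 3 (7909989 to 7910398), had median folds of 2.79 to 2.91.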

How the data were processed

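The authors' deposited peak lists of 6 MAC3A libraries (3 blue, 3 dark, groups by title) were used without new alignment or calling. The submitters' processing notes name MACS2 2.1.1, ChIPseeker, Bowtie2 and SAMtools and the build TAIR10. The sources used here give neither the settings nor the control behind each list. As deposited, the fold enrichment is a ratio over the caller's local background. The authors also deposited the −log10 of the p value, the −log10 of the q value, a whole-number score and the summit offset in bp. Peaks were described, ranked and filtered within their list by fold and −log10 q, and the p value and score were left aside.

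Peaks on chromosomes 1 to 5 were merged on overlap of at least 1 bp, and every summit was placed in a gene body, within 1 kb, or farther away. Genes (37899, with biotypes) came from a RefSeq table of TAIR10.1 without strand or sequence. No coordinate of it is printed. As a check between assemblies, 79.1% of summits fell in gene bodies unshifted, and 63.8% to 69.6% with shifts of 2000 or 5000 bp. The list of dark replicate 3 bears a submitters' code with the mark of replicate 2, but the lists differ (1169 and 1225 peaks, Jaccard index 0.528).

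Whole lists and single-list regions were compared by exact permutation over 3 against 3 (SciPy 1.17.1, NumPy 2.4.6 and pandas 2.3.3 in Python 3.11.15; Matplotlib 3.10.9 for figures). The procedure was tested on simulated data. The same test had been planned for blue-only against dark-only regions, but its p is not given, since the conditions define these sets. The members and 8 gene lists (291 entries, all matched) were chosen with earlier results of these data known. Regions were named by rule: the 20 best-ranked of 3 blue lists, the 8 best of 2, the 5 widest, the 2 narrowest, up to 4 per RNA class and up to 5 without a gene by median fold, every list gene, and the 3 nearest either side of the limit. The planned promoter motif search was not run, since no sequences were used here. Distance to gene ends, tRNA counts, starvation genes and single-list regions were added after the data were seen. Alternatives were a −log10 q of at least 5, a fold of at least 3, lists of equal length, an overlap of 100 bp, merging up to 500 bp apart, gene bodies only, 3 kb flanks, and leaving out each library.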

Additional observations from a re-analysis of the deposited data

How the results depend on the processing

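The lower share of blue-only summits in gene bodies, their higher share near gene ends and near RNA genes kept their direction under every alternative run. The differences ran from -16.2 to -5.57, from 9.86 to 32 and from 8.44 to 19.9 points. Leaving out 1 library at a time they were -16.2 to -9.74, 23.7 to 32 and 8.44 to 11.5 points. The difference in median peak width reversed to 25.2 bp at a fold of at least 3, and ran from -43.8 to -0.5 bp without 1 library; the cause was not tested. At a −log10 q of at least 5, a fold of at least 3 and equal list length, the counts were 171, 114 and 269 blue-only regions, 59, 48 and 107 regions of all 3 blue lists, and 260, 166 and 404 protein-coding genes. They were 31, 25 and 48 regions at tRNA genes, 6, 3 and 7 starvation genes, and 130, 217 and 256 dark-only regions. The held-out share was 58.8% at that q limit and 64.0% at that fold limit. These limits leave fewer peaks by construction. Protein-coding genes numbered 358 with bodies only and 1126 with 3 kb flanks. Without 1 library the counts ran from 289 to 563 blue-only regions, 263 to 272 of all 3 blue lists (dark libraries left out only), 135 to 262 dark-only regions, 415 to 792 protein-coding genes, 38 to 68 regions at tRNA genes and 8 to 13 starvation genes. For blue-only counts, leaving out a blue list tightens the rule and leaving out a dark list loosens it, and the reverse holds for dark-only counts. The held-out share cannot be formed without a further library. Peaks of none of the blue libraries overlapped best with the dark library of the same number, so the numbers are not taken as pairs. A replicate block by number can change only a p and not the differences (-13.3, 26.9 and 10.2 points and -25.8 bp), so it is no check of them. For tRNA summits over whole lists it gave an exact sign-flip p of 0.25, the smallest it can give. Depth is unknown, so a peak missing from a dark list shows no absence of binding.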

Other observations

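Some gene families, chosen after their values were seen, had several members at blue-only regions, beside 2.58% of all protein-coding genes. Of 5 BTB-TAZ genes, 3 had a blue-only summit. BT1 had folds of 2.28, 3.10 and 2.87 in the blue lists over 2 regions, and BT2 and BT5 are given above. No list had a summit at BT3 or BT4, and BT5 had another summit in 1 dark list, with a fold of 2.77. Of 13 plasma membrane aquaporin genes, whose products are water channels, 4 had a blue-only summit. PIP1B had folds of 2.86, 1.70 and 2.62, PIP3 had 2.41 and 2.23 in replicates 2 and 3, PIP1A had 2.88 and 2.54 in the same lists, and PIP1C had 2.79 and 3.19 in replicates 1 and 3. None of these 4 had a dark summit. PIP1;4 had summits in every list, with folds of 2.89, 4.46 and 3.08 in blue and 5.51, 7.11 and 4.35 in the dark. Of 22 RTFL genes, which encode small peptides that limit organ growth, 3 had a blue-only summit. RTFL8 had folds of 3.21, 2.67 and 4.07 and RTFL17 had 2.07, 2.17 and 2.08, both in all 3 blue lists, while RTFL10 had 2.46 and 2.79 in replicates 2 and 3. RTFL12 was the opposite, with summits in all 3 dark lists (folds of 2.88, 3.00 and 2.81) and in 1 blue list (2.05).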
